A study of Mus musculus with 721 samples.

Results

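The 7 genes described here encode fibronectin (Fn1) and 6 integrin subunits, the alpha subunits Itga3, Itga5, Itga6 and Itgav and the beta subunits Itgb1 and Itgb5. They were taken by symbol, 7 of the 24483 gene rows of the count table. The table holds polyadenylated RNA from 721 samples of wild-type C57Bl/6Babr mouse embryos, each sample a well with 1 cell or, in 128 wells, 2 cells, sequenced with the full-length Smart-seq2 chemistry after RNA was parted from DNA. The question put to the genes was how their levels differed between stages and between lineages as the epiblast was prepared for gastrulation. Wells are called cells below.

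The E3.5 stage gave 99 cells, E4.5 gave 105, E5.5 gave 267 and E6.5 gave 250, the last including 82 cells whose titles gave E6.75. No mutation, transgene or treatment was used in any group. The trophectoderm had been removed by immunosurgery at E3.5 and E4.5, and the study also left out cells with trophoblast markers. The remaining cells are called inner cell mass at E3.5, without a check that each was free of trophectoderm. Cells had 66896 to 3792936 counts (median 692863), and the median per stage lay between 553935 and 788667. Embryos were the replicates: E3.5 had 10 units (9 embryos and 1 sum of 9 cells whose titles gave no embryo number), E4.5 had 5, E5.5 had 9 and E6.5 had 13. Embryos 1 and 2 of the E6.5 titles without a plate name carry the same numbers as embryos of plate P1. They may be the same embryos, in which case E6.5 had 11, but they were kept apart. The study counted fewer embryos in all than the 37 units used here. Other units, such as embryos 1 and 2 of the E6.75 titles, may thus also repeat an embryo, which was not tested. Levels are CPM (reads of a gene scaled to the library total and by TMM) of the counts summed per embryo and class, for sums with 3 cells or more. Means are given ± SD over embryos. Where all sums of a class are said to lie above or below those of another, the share of all genes doing so is not given. A sum can be low because fewer cells carried a transcript or because each carried less, and the sum alone cannot tell these apart. Some plate labels recur between stages without a statement that they are the same plate. Plate was not a term in the stage comparisons and its part in them was not tested, whereas the lineages of 1 stage were compared inside the same embryos and plates.

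Cells were put into classes by clustering without the 7 genes and without 67 other genes of adhesion. E4.5 held 23 epiblast-like cells (5 embryos) and 68 primitive endoderm (PrE)-like cells (5 embryos). E5.5 held 259 epiblast-like cells, with 8 embryos giving a sum, and 8 endoderm-like cells. In the embryonic clusters of E6.5, 54 cells had at least 10 CPM of T, the Brachyury gene of the primitive streak, and are called T-positive (4 embryos giving a sum). The other 153 are called T-negative (13 embryos), and E6.5 also held 43 endoderm-like cells (7 embryos giving a sum). The summed level of 17 endoderm markers was 8916 to 18802 CPM in the PrE-like sums and 1379 to 3299 in the E4.5 epiblast-like sums. In the E6.5 endoderm-like sums it was 12479.5 to 37407 CPM, against 590 to 8717 in the T-negative sums. The summed level of 10 streak genes, T among them, was 525 to 1252 CPM in T-positive and 63.6 to 591 in T-negative sums. The endoderm levels went with the class names, although the clustering had used the same genes. The streak levels overlapped between the T classes, which T itself had set. In the endoderm-like sums of E6.5 the streak genes summed to 348 to 2629 CPM. Trophoblast markers (8 genes) summed to 157 to 985 CPM in the E3.5 sums (median 660). They summed to 180 to 435 CPM in E4.5 epiblast-like and 68.5 to 149 in PrE-like sums. Their part in the E3.5 levels and in the step from E3.5 to E4.5 was not tested. Around the limit of 10 CPM, 10 embryonic E6.5 cells lay between 5 and 20 CPM of T.

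Integrins are surface receptors made of 1 alpha and 1 beta chain, and each pair sets which matrix protein a cell can hold. The alpha 5 chain pairs with beta 1 to bind fibronectin, alpha 3 and alpha 6 pair with beta 1 to bind laminins, and the alpha V chain pairs with several beta chains, including beta 5, to bind ligands such as vitronectin and fibronectin. Fibronectin is a secreted glycoprotein of the early extracellular matrix and is required for mesoderm development in the mouse. Laminins and collagen IV make up the basement membrane between the epiblast and the endoderm around it.

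On GRCm38, all 7 genes are protein coding. Fn1 (ENSMUSG00000026193) lies on chromosome 1 from 71585520 to 71653200 on the minus strand, with 11685 exonic bases. Itga5 (ENSMUSG00000000555) lies on chromosome 15 from 103344286 to 103366763, minus, with 4933 bases. Itga3 (ENSMUSG00000001507) lies on chromosome 11 from 95044474 to 95076801, minus, with 5710 bases. Itga6 (ENSMUSG00000027111) and Itgav (ENSMUSG00000027087) share chromosome 2, from 71745616 to 71858416 and from 83724397 to 83806916, both plus, with 9025 and 10744 bases. Itgb1 (ENSMUSG00000025809) lies on chromosome 8 from 128685654 to 128733200, plus, with 4081 bases, and Itgb5 (ENSMUSG00000022817) on chromosome 16 from 33829665 to 33949338, plus, with 3553 bases. The exons of Fn1 share 292 bases with Apol7d on the other strand, and those of Itgav share 634 bases with Gm13684, so reads in those bases could come from either gene if counting did not use the strand.

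Fn1, the ligand, had its highest mean level in the E4.5 epiblast-like cells. The E3.5 inner cell mass had 103 ± 69.0 CPM (10 sums, 1.27 to 218, median 108). The 5 E4.5 epiblast-like sums had 111, 239, 253, 264 and 397 CPM (mean 253 ± 102). In the PrE-like cells of the same embryos Fn1 was at 51.7, 41.9, 56.8, 23.1 and 31.5 CPM, in the same order of embryos. Every PrE-like sum lay below every epiblast-like sum. At E5.5 the epiblast-like cells had 38.1 ± 20.1 CPM (n = 8, 8.79 to 73.1), and at E6.5 the T-negative cells had 19.14 ± 14.4 (n = 13, 0.634 to 43.4). All 23 E4.5 epiblast-like cells held at least 1 Fn1 count, against 51 of 68 PrE-like, 162 of 259 E5.5 epiblast-like and 83 of 153 T-negative E6.5 cells. Wells labelled double, with more than 1 cell, were 7 of 23, 26 of 68, 66 of 259 and 10 of 153 in these classes. Their part in the shares was not tested.

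**Figure D1:**
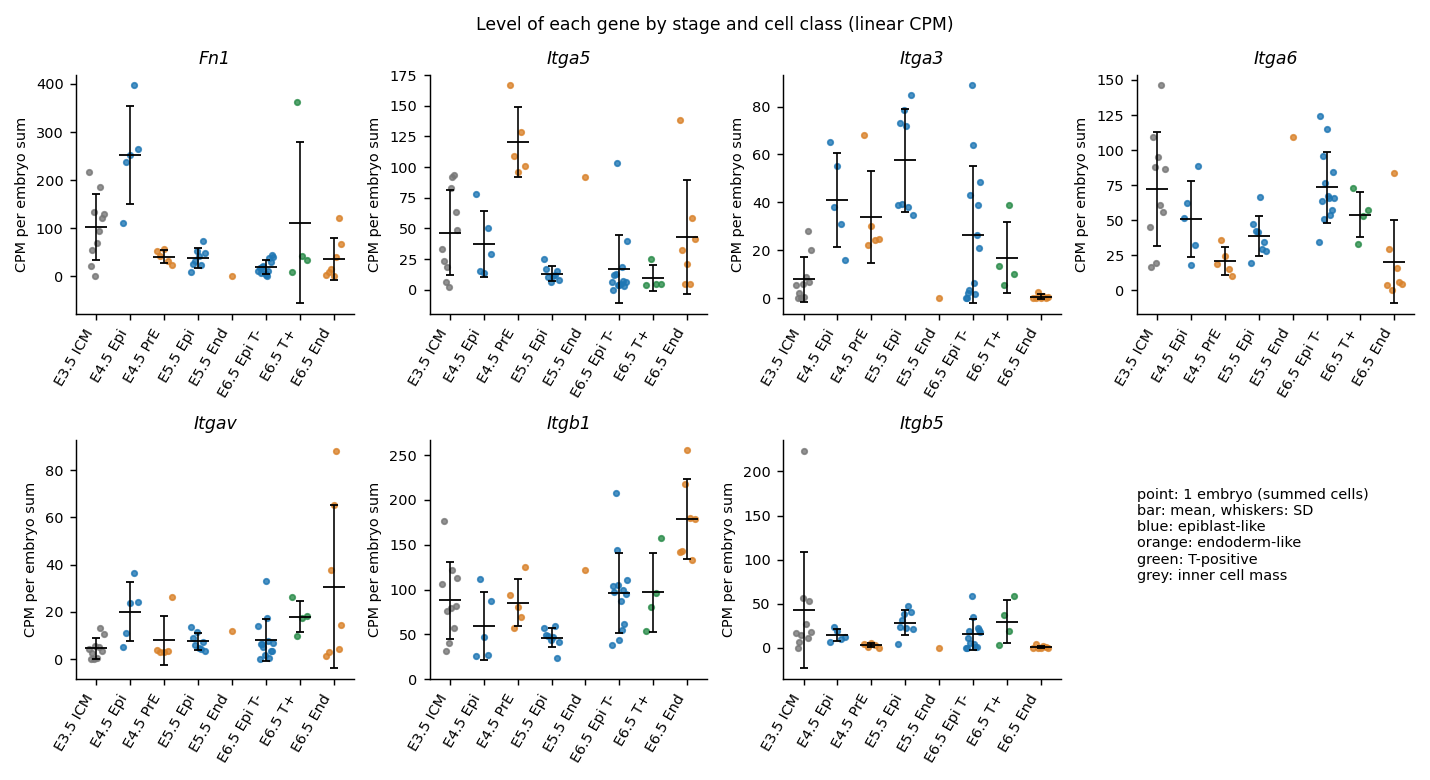
Level of each of the 7 genes in CPM (linear axis) by stage and cell class, where a point is the sum of 1 embryo a bar the mean and whiskers the SD over embryos. Fn1 stood highest in the E4.5 epiblast-like cells (mean 253 CPM), Itga5 in the PrE-like cells (120 CPM) and Itgb1 in the E6.5 endoderm-like cells (179 CPM), while Itga3 and Itgb5 were near 0 in the last.

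From E4.5 to E5.5 in the epiblast, 1 of the 7 genes was called, against 5.28% of all 13548 genes tested. A gene was called where edgeR's quasi-likelihood p, adjusted over all genes by Benjamini-Hochberg, did not exceed 0.05 and the log2 fold change lay beyond 1 in either direction. Fn1 fell by 2.76 on the log2 scale (SE 0.760, adjusted p = 0.0193), and all 8 E5.5 sums lay below all 5 E4.5 sums. Without the E4.5 embryo at 397 CPM (replicate 4) the log2 change was -2.54 and the adjusted p 0.0649, and the call was lost. It was also lost with Ward clustering and in the test against the log2 limit, and held in 9 of 12 alternatives. Over alternatives the adjusted p of Fn1 ran from 0.00295 to 0.0779. Itga5 was at 37.2 ± 27.2 CPM before and 13.02 ± 5.89 after (log2 -1.55, adjusted p = 0.256).

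In the step before, from E3.5 to the E4.5 epiblast, 0 of the 7 genes were called, against 20.8% of all genes (2812 of 13548). Unadjusted p-values under 0.05 were reached by 4645 of all genes and by 2 of the 7, Itga3 (7.83 ± 9.33 against 41.1 ± 19.6 CPM, log2 2.35, SE 0.915, adjusted p = 0.0556) and Itgav (4.49 ± 4.40 against 20.1 ± 12.4 CPM, log2 2.12, SE 0.902, adjusted p = 0.0817). DESeq2 called both, and edgeR with RLE normalization called Itga3 alone. Itga3 was low in the inner cell mass, where 30 of 99 cells had a count and 2 of 10 sums were at 0. For Fn1 the log2 difference was 1.26 (SE 0.707, adjusted p = 0.205). Itgb5 spread widely at E3.5, from 0 to 224 CPM, and without the highest sum the other 9 reached 55.9 CPM at most.

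At E4.5 the lineages were compared inside the same 5 embryos. The comparison called 2 of the 7 genes, against 14.8% of all genes (1478 of 9972). Fn1 was lower in PrE-like cells in 5 of 5 embryos (log2 -2.57, SE 0.351, adjusted p = 1.84e-04). That call held in all 15 alternatives, in which the log2 value ran from -2.92 to -2.24. Itga5, the fibronectin receptor chain, went the other way. PrE-like sums had 167, 109, 95.8, 129 and 101 CPM of Itga5, and the epiblast-like sums of the same embryos had 78.2, 15.0, 13.8, 49.9 and 29.2. The 5 PrE-like sums thus all lay above the 5 epiblast-like sums, by 1.72 on the log2 scale (SE 0.449, adjusted p = 0.0162). This call held in 10 of 15 alternatives: without replicate 5 the adjusted p was 0.0526, in sums of at least 5 cells it was 0.0850 and in single-cell wells alone 0.0830, with log2 values of 1.67, 1.34 and 1.78. Of the cells, 61 of 68 PrE-like and 16 of 23 epiblast-like cells had an Itga5 count.

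Itgb5, the beta chain that pairs with alpha V, was not called at E4.5. It had 126 counts over the 5 PrE-like sums, with 2 and 1 of them in P1 embryo 2 and P2 embryo 5. Epiblast-like sums had 6.62, 22.9, 19.12, 9.90 and 11.97 CPM, and the matching PrE-like sums had 3.64, 0.48, 5.43, 3.17 and 0.07. Its log2 difference was -2.40 (SE 0.992, adjusted p = 0.120), and it was lower in PrE-like cells in 5 of 5 embryos. The laminin receptor chain Itga6 averaged 21.0 ± 9.69 CPM in the PrE-like sums against 50.7 ± 27.0 in the epiblast-like ones (log2 -1.21, adjusted p = 0.118), lower in 4 of 5 embryos. Itgav was also lower in 4 of 5 embryos (log2 -1.31, adjusted p = 0.329), with 1 PrE-like sum at 26.3 CPM and a median of 3.61 CPM over the 5. Itgb1, the common beta chain, was higher in PrE-like cells in 4 of 5 embryos (85.2 ± 26.1 against 59.9 ± 37.9 CPM, log2 0.58, adjusted p = 0.393). Itga3 was close in both (33.9 ± 19.3 and 41.1 ± 19.6 CPM, log2 -0.22, SE 0.482).

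**Figure D2:**
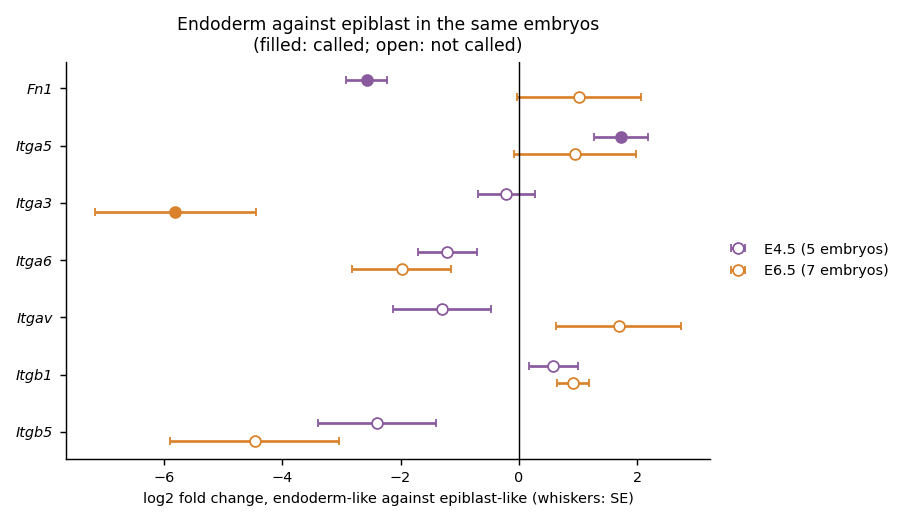
Log2 fold change of each gene between endoderm-like and epiblast-like sums of the same embryos at E4.5 (5 embryos) and E6.5 (7 embryos), with whiskers of 1 SE, filled where the gene was called. At E4.5 Fn1 (-2.57) and Itga5 (1.72) were called on opposite sides, and at E6.5 Itga3 (-5.80) was called.

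At E6.5, 1 of the 7 genes was called between endoderm-like and T-negative epiblast-like cells of the same 7 embryos, against 5.03% of all genes (470 of 9338). It was Itga3. Its T-negative sums were at 0, 42.9, 88.8, 64.1, 6.34, 21.1 and 48.3 CPM, and the endoderm-like sums of those embryos at 0, 0, 2.77, 0, 0.88, 0 and 0.66. Itga3 was lower in the endoderm in 6 of 7 embryos and at 0 in both classes in the other. The log2 difference was -5.80 (SE 1.36, adjusted p = 0.0141). Only 28 Itga3 counts were found in the 7 endoderm-like sums together, and 6 of 43 cells had any. The call was lost in 4 of 14 alternatives, all of them with fewer embryos: with sums of at least 5 cells (adjusted p = 0.150), without the cells titled E6.75 or with plate-named embryos alone (the same fit, 0.131), and with the embryos lacking a plate name alone (0.0629). The log2 value stayed between -6.76 and -5.401 in all 14.

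Itgb5 was also near 0 in the E6.5 endoderm. Its endoderm-like sums were at 0, 3.75, 0, 0, 1.76, 0.46 and 0 CPM, and the T-negative sums of the same embryos at 0, 5.11, 59.0, 34.7, 4.33, 19.8 and 18.0. The gene was lower in 6 of 7 embryos and at 0 in both classes in the other, with a log2 difference of -4.47 (SE 1.42) that missed the threshold (adjusted p = 0.0724) and passed with DESeq2 (adjusted p = 0.00771). edgeR thus called Itgb5 between the lineages at neither stage.

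Itgb1 was the member with the highest level in the E6.5 endoderm. Endoderm-like sums had 142, 143, 217, 255, 180, 133 and 179 CPM, and the T-negative sums of those embryos had 103, 144, 105, 43.8, 87.3, 95.6 and 111. It was higher in 6 of 7 embryos and present in 43 of 43 endoderm-like cells, but the log2 difference of 0.91 (SE 0.269, adjusted p = 0.0529) was below the limit of 1. With the possibly shared embryos merged it was 1.02 and called (adjusted p = 0.0127). Itga6 was lower in the endoderm in 7 of 7 embryos. Its endoderm-like sums had 4.14, 29.4, 0, 83.6, 15.8, 5.93 and 4.94 CPM against 124, 50.6, 76.4, 115, 67.0, 84.4 and 66.2 CPM in T-negative sums, and the log2 difference was -1.98 (SE 0.842, adjusted p = 0.190). In the 2 embryos without a plate name alone, Itga6 was called (log2 -3.70, adjusted p = 0.0230). Itgav was higher in 6 of 7 embryos (30.6 ± 34.5 against 9.65 ± 11.9 CPM, adjusted p = 0.414) and Itga5 in 5 of 7 (43.1 ± 46.4 against 23.1 ± 37.9 CPM, adjusted p = 0.688). Both spread over more than the size of their means. Fn1 was higher in 4 embryos and lower in 3 (36.2 ± 44.4 against 19.0 ± 17.1 CPM, adjusted p = 0.672).

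**Figure D3:**
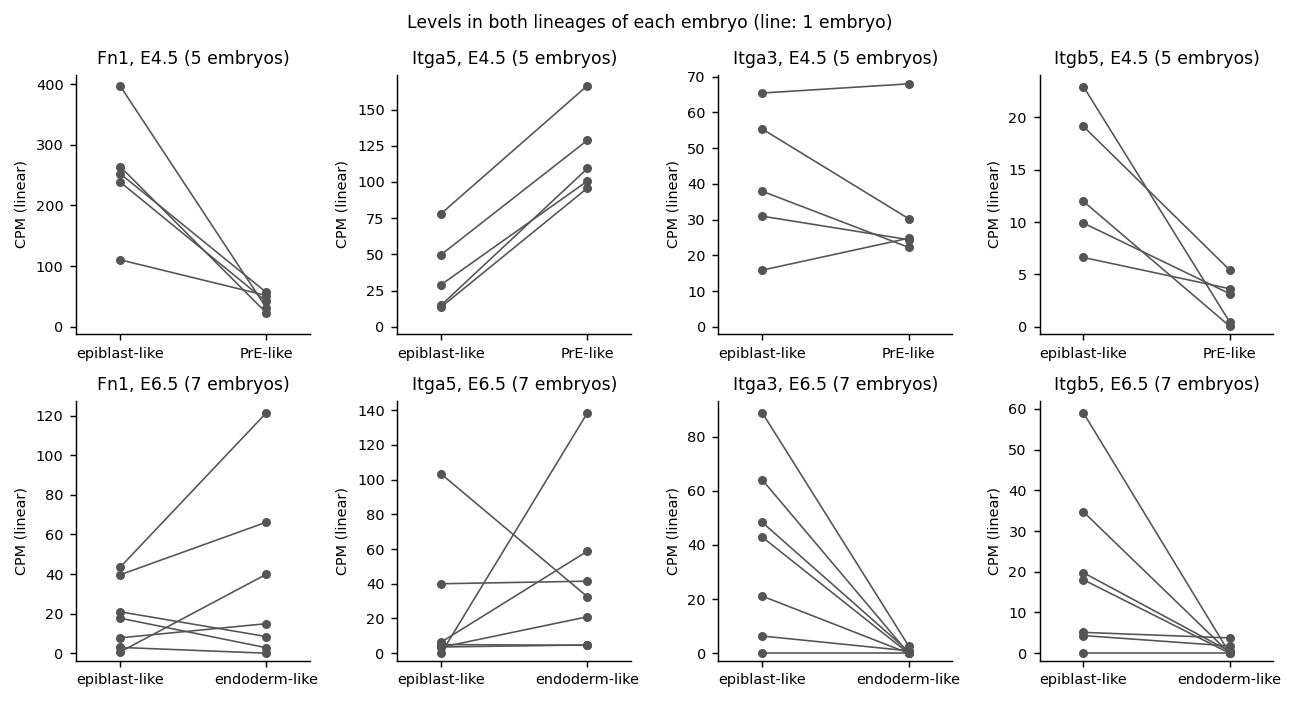
Levels (CPM, linear axis) of 4 genes in the epiblast-like and the endoderm-like sum of each embryo, joined by a line, at E4.5 (5 embryos, PrE-like) and E6.5 (7 embryos). Fn1 fell and Itga5 rose in all 5 E4.5 embryos, and Itga3 and Itgb5 were lower in the endoderm in 6 of 7 E6.5 embryos.

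Endoderm itself was followed from the PrE-like cells of E4.5 to the endoderm-like cells of E6.5. Of the 7 genes 1 was called, against 12.7% of all genes (1719 of 13548). Itga3 went from 22.3, 24.4, 24.8, 30.3 and 68.0 CPM in the 5 PrE-like sums to at most 2.77 CPM in the 7 E6.5 sums, 4 of which were at 0. The log2 change was -5.71 (SE 1.18, adjusted p = 7.96e-04), and the call held in all 17 alternatives (log2 -6.79 to -5.16). Itgb1 went the other way, with all 7 E6.5 sums (133 to 255 CPM) above all 5 PrE-like sums (57.3 to 125). Its log2 change of 0.99 (SE 0.390, adjusted p = 0.0810) was not called, but it was in single-cell wells alone and with Ward clustering (adjusted p = 0.0493 and 0.0440). Itga5 was at 120 ± 28.8 CPM at E4.5 and 43.1 ± 46.4 at E6.5 (log2 -1.56, adjusted p = 0.211). Fn1 changed by -0.19 on the log2 scale (SE 0.782), a value that ran from -1.76 to 1.21 over alternatives.

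The E5.5 endoderm-like cells were too few for a test, 8 cells from 4 embryos, 5 of them titled as visceral endoderm from 1 embryo. Fn1 had 0 counts in 8 of 8 cells, where 3 counts would have been 0.347 CPM of their 8648634 counts. Itgb5 was found in 1 cell. Itga3 was found in 2 of 8 cells and in 0 of the 5 titled as visceral endoderm. Itga5 and Itgb1 were each found in 6 of 8 cells, at 97.8 and 116 CPM of the summed counts. The sum of the 5 titled cells from 1 embryo had 92.2 CPM of Itga5, 122 of Itgb1 and 109 of Itga6. With 1 embryo there is no replicate check.

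Whether the lineage difference changed with stage was tested directly, as the endoderm against epiblast difference at E6.5 minus that at E4.5. It used 7 endoderm-like and 13 T-negative sums of E6.5 and 5 and 5 of E4.5, with no term for the embryo, so the 6 E6.5 embryos without an endoderm sum entered it too. The test called 2 of the 7 genes, against 3.9% of all genes (528 of 13548). For Fn1 the difference rose by 3.55 on the log2 scale (SE 1.08, adjusted p = 0.0491), and for Itga3 it fell by 5.05 (SE 1.51, adjusted p = 0.0452). The median of all genes was -0.36, and -0.25 with RLE normalization, so both values are larger than the general shift. Both calls were near the limit. In the embryos that gave both lineages, Itga3 was still called (log2 -5.53, adjusted p = 0.0352; with an embryo block -6.25, 0.0313), whereas Fn1 was not (log2 3.60, adjusted p = 0.136; with the block 2.84, 0.267). Fn1 was called in 5 of 19 alternatives (adjusted p from 0.0100 to 0.267) and Itga3 in 6 of 19 (0.00493 to 0.106), and leaving out any 1 of the 5 E4.5 embryos lost both. The sign was kept in all 19 for both genes. Itgav had a difference of 3.19 (SE 1.37, adjusted p = 0.192), and the other 4 genes had adjusted p-values from 0.680 to 0.943.

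In the epiblast from E5.5 to E6.5 T-negative cells, 1 of the 7 genes was called, against 8.72% of all genes (1181 of 13548). Itgb1 rose from 46.3 ± 10.7 CPM (n = 8, 24.2 to 59.2) to 96.0 ± 44.9 (n = 13, 37.8 to 208), and 10 of 13 E6.5 sums lay above all 8 E5.5 sums. The log2 change of 1.06 (SE 0.303, adjusted p = 0.0139) was just past the limit of 1. It lay under the limit with Ward clustering (0.997, adjusted p = 0.0165), without cells titled E6.75 (0.95, 0.0442) and with plate-named embryos alone (0.99, 0.0424). With embryos lacking a plate name alone it was 1.005, with an adjusted p of 0.164. Endoderm markers summed to 5343, 7016 and 8717 CPM in 3 T-negative sums and to at most 3198 in the other 10, and their part in this change was not tested. Itga6 was at 38.8 ± 14.5 and then 73.4 ± 25.6 CPM (log2 0.92, adjusted p = 0.258). Itga3 had 57.5 ± 21.5 CPM in 8 E5.5 sums, from 34.5 to 84.9, and 26.5 ± 28.5 in 13 E6.5 sums, of which 8 lay below every E5.5 sum (log2 -1.10, adjusted p = 0.406).

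Fn1 in the E6.5 T-negative cells split by how the cells were titled. The 9 embryos with a plate name had 0.63 to 20.9 CPM (mean 10.9 ± 7.11), and the 4 without had 30.1 to 43.4 (mean 37.7 ± 5.62). The ranges did not overlap. Pooled, the log2 change of Fn1 from E5.5 was -0.97 (SE 0.591, adjusted p = 0.329). Against plate-named embryos alone it was -1.91 and called (adjusted p = 0.0279), and against the others alone it was 0.01 (adjusted p = 1). The endoderm-like sums had 0 to 39.9 CPM in 5 plate-named embryos and 66.2 and 121 CPM in the other 2. Those 2 were among the 4 embryos without a plate name above, so this is no separate occurrence. For the other members the T-negative ranges overlapped between the titles. Titled age went partly with plate name. Of the 4 T-negative sums without a plate name 2 were titled E6.75, as were the 2 endoderm-like sums, and plate-named embryos were titled E6.5. The difference between titles was not itself a planned comparison, and its cause was not tested.

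T-positive cells were compared with T-negative cells of the same 4 E6.5 embryos, and 0 of the 7 genes were called. Of all 11139 genes tested by edgeR 1 was called, 0.00898%, and that gene was T, which had set the classes. Unadjusted p-values under 0.05 were reached by 282 genes, and DESeq2 called 4 genes and 0 of the 7. Among the members 1 had an unadjusted p under 0.05, Itgav, with 26.3, 9.92, 17.5 and 18.4 CPM in T-positive sums against 6.32, 3.28, 3.33 and 6.74 in T-negative sums of those embryos. All 4 T-positive sums lay above all 4 T-negative sums (log2 1.89, SE 0.692, p = 0.0163, adjusted p = 1). The highest T-positive sum, 26.3 CPM, came from 8 cells of P1 embryo 3. Most of those cells had no Itgav count, and 1 was at 235 CPM. With T-positive cells limited to at least 50 CPM of T, the log2 value of Itgav was 1.01 (SE 1.10).

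Fn1 had the same log2 value of 1.89 (SE 0.885, p = 0.0515, adjusted p = 1), but it rested on 1 embryo. T-positive sums had 8.59, 362, 42.7 and 33.5 CPM, and T-negative sums 6.32, 30.1, 43.4 and 39.6. Without the embryo at 362 CPM (E6.5 embryo 2 of the titles that name no plate) the log2 value was -0.04. In that embryo 23 T-positive cells all had at least 10 CPM of Mesp1, a gene of the nascent mesoderm. Their Fn1 levels ran from 80.9 to 719 CPM (median 304), against 0 to 119 (median 41.9) in the 8 T-negative cells of that embryo. This embryo also held 24 of the 25 cells of the cluster with the highest streak markers. T-positive cells with at least 10 CPM of Mesp1 in the other embryos were 3 with a summed 8.98 CPM, 1 with 122 CPM and 3 with 34.9 CPM of Fn1. T-positive cells with less than 10 CPM of Mesp1 in those 3 embryos were 5, 10 and 7, at 6.70, 43.9 and 36.6 CPM of Fn1. High Fn1 in T-positive cells was therefore measured in 1 embryo, and its mesoderm-marked cells in other embryos were too few to compare.

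**Figure D4:**
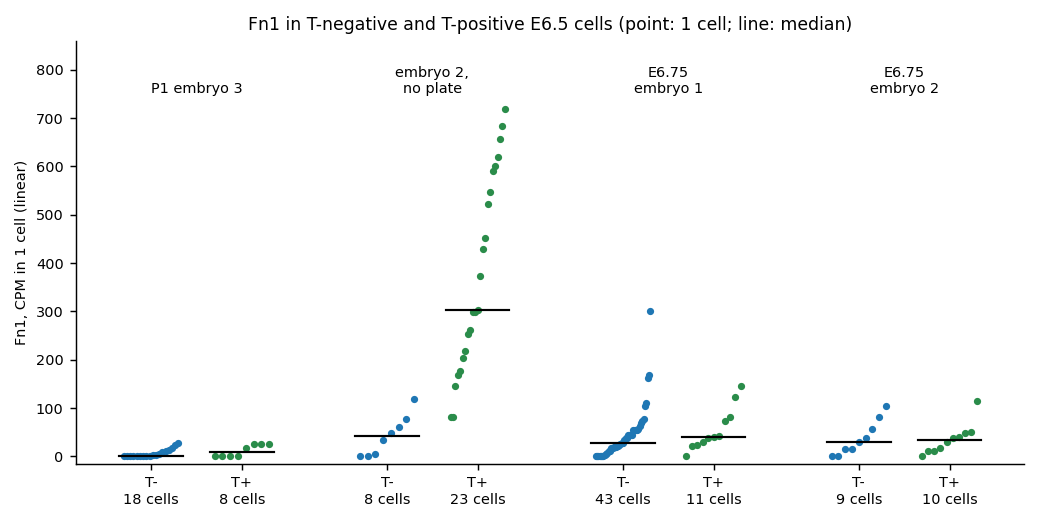
Fn1 level (CPM, linear axis) in single E6.5 cells of the embryonic clusters, T-negative and T-positive, by embryo, with a line at the median. In 1 embryo 23 T-positive cells lay between 80.9 and 719 CPM above a T-negative median of 41.9, and in the other 3 embryos no T-positive cell had more than 147 CPM.

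Of the other integrin chains, Itgb5 was at 3.03, 37.1, 19.4 and 59.0 CPM in T-positive sums and 11.3, 22.3, 19.8 and 18.0 in T-negative sums (log2 0.73, SE 0.694). Itga5 was lower in 3 of 4 embryos but at 25.2 against 2.97 CPM in the embryo with high Fn1 (log2 -0.66, SE 0.910). Itga6, Itga3 and Itgb1 had log2 values of -0.32, -0.70 and 0.10 with SE of 0.352, 0.819 and 0.358. With 4 embryos the interval of each of these differences spans more than 1 log2 unit, so that a moderate difference was not detectable.

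Levels can be ranked among the 7 genes only per length, as CPM per kilobase of exon. Itgb1 was first in 6 of the 8 classes, from 11.3 ± 2.63 in the E5.5 epiblast-like sums to 43.7 ± 10.98 in the E6.5 endoderm-like sums. In the E4.5 epiblast-like sums Fn1 was first (21.6 ± 8.70) ahead of Itgb1 (14.7 ± 9.28), and in the PrE-like sums Itga5 (24.4 ± 5.84) ahead of Itgb1 (20.9 ± 6.39). Both gaps are smaller than the spread over embryos. The alpha chain with the highest mean was Itga5 at E3.5, in both E4.5 classes and in the endoderm at E5.5 and E6.5. It was Itga3 in the E5.5 epiblast-like sums (10.1 ± 3.76 against 4.30 ± 1.61 for Itga6) and Itga6 in both E6.5 embryonic classes (8.13 ± 2.84 and 5.98 ± 1.80). At E4.5 the epiblast-like means of Itga5 (7.54 ± 5.51), Itga3 (7.20 ± 3.44) and Itga6 (5.62 ± 3.00) did not differ beyond their spread. Itgav was last in 5 of 8 classes.

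Shares of cells were set beside these levels after each cell was thinned to 150000 counts, which left out 9 shallower cells (1 E5.5 epiblast-like, 3 T-negative, 4 T-positive and 1 E6.5 endoderm-like). For Itga3 the share with a count was 7.14% in E6.5 endoderm-like cells (3 of 42, exact binomial 95% interval 1.498 to 19.5%; unthinned 14.0%), against 50% in PrE-like (unthinned 54.4%), 64.3% in E5.5 epiblast-like (70.7%) and 34.0% in T-negative cells (40.5%). For Itgb5 it was 10.3% in PrE-like (unthinned 17.6%) and 7.14% in E6.5 endoderm-like cells (14.0%), against 26.7% of T-negative cells (33.3%). Cells of each class are pooled over embryos that gave unequal numbers. Wells labelled double, with more than 1 cell, were 26 of 68 PrE-like and 66 of 259 E5.5 epiblast-like wells. They were 3 of 43 E6.5 endoderm-like and 10 of 153 T-negative wells. Thinning evens the counts of a well but not its number of cells. The part of double wells in these shares was not tested. These intervals and shares cover counting error only, since cells of an embryo are not replicates, and amplified reads without molecular identifiers are not independent molecules.

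Most of the other 21 integrin subunits were under the filter on low counts, with 8 tested across stages, 3 within E4.5, 2 between T classes and 0 in the E6.5 lineage comparison. Itga9 was called on both sides of the E4.5 epiblast. It had 0 counts in all 10 E3.5 sums and 17.0 ± 18.6 CPM in the 5 E4.5 epiblast-like sums, at least 339-fold higher against a floor of 3 counts over the E3.5 group, and it then fell by 7.02 on the log2 scale at E5.5 (SE 1.98, adjusted p = 0.0262). Itgb4, the partner of alpha 6 in hemidesmosomes, was higher in PrE-like than epiblast-like cells (6.27 ± 4.22 against 0.295 ± 0.659 CPM, log2 4.12, adjusted p = 0.0398) and lower again in the E6.5 endoderm-like sums (0.193 ± 0.510 CPM, log2 -4.92, adjusted p = 0.0407).

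Laminin and collagen IV genes were among the matrix genes called between the lineages at E4.5. Of 19 other ligand and matrix genes 12 were tested there, of which 6 were higher and 2 lower in PrE-like cells (14.8% of all genes called), and their median log2 value was 3.24 against 0.09 for all genes. Col4a2 (673 ± 117 against 1.59 ± 3.03 CPM), Col4a1 (897 ± 169 against 8.78 ± 9.76), Lama1 (1026 ± 240 against 12.6 ± 15.3) and Lamb1 (1785 ± 226 against 47.8 ± 36.7) rose by 8.42, 6.57, 6.31 and 5.25 on the log2 scale. The lower genes, named after their values were seen, were Spp1, which encodes the integrin ligand osteopontin (log2 -2.43, SE 0.367, adjusted p = 4.02e-04), and Lama5, a laminin chain (log2 -1.13, adjusted p = 0.0437). The list was assembled with results of these cells known, so its count is no independent evidence of a direction. Sparc and 5 other parietal endoderm markers with a row summed to 3703 to 7145 CPM in the PrE-like sums and 230 to 513 in the epiblast-like sums, with Thbd at 0 in both, and their part in the laminin values was not tested.

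At E6.5, where 5.03% of all genes were called, 3 of 9 matrix genes tested were higher in the endoderm-like cells and 0 lower. The median of the 9 was 2.13 on the log2 scale, against -0.05 for all genes. The 3 higher genes were Col4a2 (log2 4.14, adjusted p = 0.00807), Col4a1 (3.78, 5.25e-05) and Lamb1 (1.95, 0.0354). Tested directly (3.9% of all genes called), the lineage difference was smaller at E6.5 than at E4.5 for the same 3 of 15 genes. It was smaller by 5.65, 3.52 and 4.01 on the log2 scale (adjusted p = 0.0133, 0.0237 and 0.0118). With an embryo block over embryos with both lineages, Lamb1 kept the call (adjusted p = 0.0411) and Col4a2 and Col4a1 lost it (0.0815 and 0.101). Within the endoderm from E4.5 to E6.5, 6 of 15 genes fell and 1 rose (12.7% of all genes called), with a median of -3.58 (-3.44 with genes at 0 set to their bound) against -0.07 for all genes. Spp1, Hspg2, which encodes perlecan, and Lama1 fell (log2 -6.39, -5.92 and -5.12). Ltbp1, the gene that rose, had 0 counts in PrE-like sums and 0.294 ± 0.581 CPM at E6.5 (11 counts), at least 5.17-fold higher.

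In the epiblast from E3.5 to E4.5, 5 of 15 ligand genes rose and 2 fell, with a median of 0 (20.8% of all genes called). Lamb2, Thbs1 and Ltbp1 were at 0 in all E3.5 sums and at 2.96 ± 3.66, 2.56 ± 3.55 and 0.662 ± 1.48 CPM at E4.5. They were thus at least 59.1-fold, 51.2-fold and 13.2-fold higher. These rises rested on 51, 26 and 8 counts, and those of Ltbp1 lay in 1 of the 5 E4.5 sums. Tgfb1 rose by 5.403 on the log2 scale. The genes that fell, named after their values were seen, were Col4a2 (-4.31) and Col4a1 (-1.92). From E4.5 to E5.5, where 5.28% of all genes were called, 4 of 15 fell and 0 rose: Nid1 (-5.20), Lama1 (-4.57), Spp1 (-4.29) and Lamc1 (-2.36), and Fn1 fell in the same comparison. From E5.5 to E6.5 (8.72% of all genes), Col4a1 rose by 2.39, and Thbs1, Spp1 and Lama5 fell. Thbs1 was left with 2 counts in the E6.5 T-negative cells, Spp1 fell by 2.36 and Lama5 by 1.62. Between T classes 0 of 12 were called by edgeR (median log2 0.45), against 0.00898% of all genes.

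**Figure D5:**
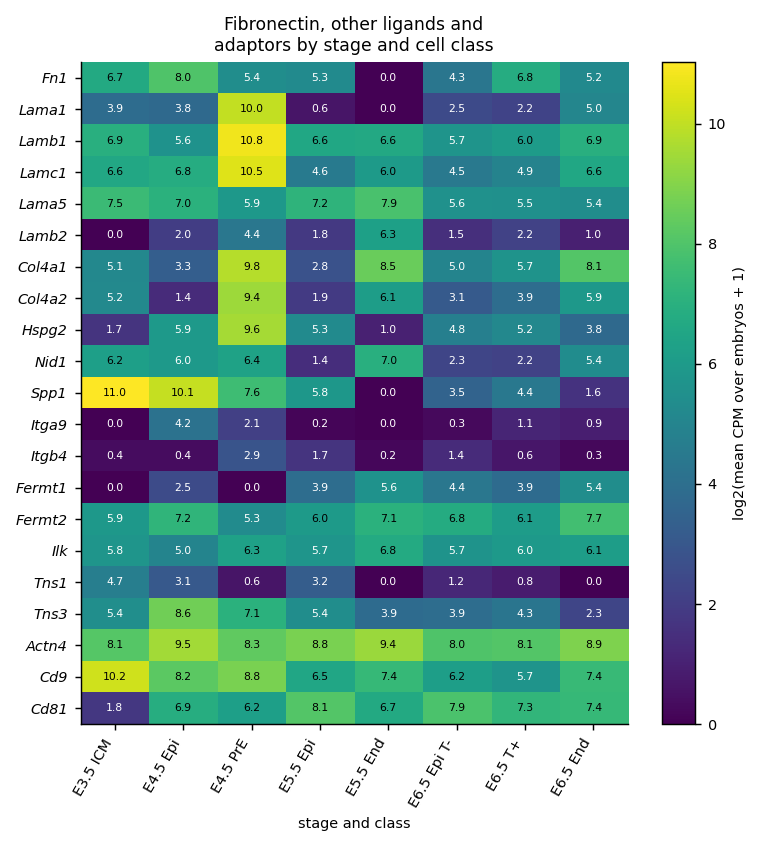
Mean level by stage and class, as log2 of the mean CPM over embryos plus 1, of fibronectin, other ligand genes and adaptors. Lama1, Lamb1, Lamc1, Col4a1 and Col4a2 were highest in the E4.5 PrE-like column (Lamb1 at 1785 CPM on the linear scale), and Spp1 in the E3.5 inner cell mass (2097 CPM).

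The genes called adaptors here encode proteins that tie integrin tails to actin or carry their signals, and also tetraspanins of the cell membrane. From E3.5 to the E4.5 epiblast 6 of 26 tested genes rose and 2 fell, against 20.8% of all genes called, among them Cd81, a tetraspanin (log2 5.58), Tns3, a tensin (3.18), and Zyx, zyxin (-2.97). Fermt1, a kindlin, was at 0 in all E3.5 sums and at 4.70 ± 10.5 CPM at E4.5 (at least 93.9-fold higher), although 4 of the 5 E4.5 sums were also at 0. From E4.5 to E5.5 (5.28% of all genes called), Tns3, Cd9 and Fermt2 fell by 3.30, 1.77 and 1.25. From E5.5 to E6.5 edgeR called 0 of 26 (median log2 -0.13), against 8.72% of all genes. In PrE-like against epiblast-like cells (14.8% of all genes called) Ilk, integrin-linked kinase, was higher (79.8 ± 22.8 against 30.2 ± 23.4 CPM, log2 1.49, adjusted p = 0.0340). Fermt2, Tns3 and Actn4 were lower (log2 -1.86, -1.54 and -1.12).

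In the endoderm 2 of 26 adaptors rose and 3 fell from E4.5 to E6.5, against 12.7% of all genes called. Fermt2, a kindlin, rose from 39.5 ± 13.8 CPM in PrE-like to 206 ± 101 CPM in E6.5 endoderm-like sums (log2 2.30, SE 0.383, adjusted p = 3.86e-05). Fermt1 was at 2 counts in all PrE-like cells and at 40.9 ± 20.5 CPM in the 7 E6.5 sums, none of them at 0 (adjusted p = 6.36e-04). Tns3 fell by 5.22, Cd9, named after its value was seen, fell by 1.48, and Tns1 was at 0 in all 7 E6.5 sums, at least 5.88-fold lower. The lineage difference changed with stage for Fermt1, Fermt2 and Actn4 (log2 7.84, 2.75 and 2.06, adjusted p = 0.0204, 5.64e-04 and 9.65e-05), against 3.9% of all genes called. With the embryo block the call was lost for Fermt1 (adjusted p = 0.465) and kept for Fermt2 and Actn4 (0.0164 and 0.00394). Within E6.5, edgeR called 0 of 24 adaptors between the lineages and 0 of 24 between T classes (median log2 0.52 and -0.17). The shares of all genes called there were 5.03% and 0.00898%.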

How the data were processed

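The members, the gene lists and the class markers were chosen with earlier results of these data known. The authors trimmed the reads with Trim Galore, aligned them to GRCm38 with HISAT2 and counted them per gene with SeqMonk. The submitters' processing notes give versions 0.4.3 and 2.0.5 of the first 2 tools, and the study's methods give other versions of both. The deposited values are raw read counts of each gene in each cell, not normalized, in 24483 rows. The cells had already passed the authors' filter (the fewest genes detected in a cell was 4009). Counting is not stated to have used the strand.

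Stage, embryo, plate and single or double well were taken from the labels. E6.5 includes the cells titled E6.75. Cells were clustered by consensus k-means after SC3 (8 clusters over all cells, 5 over E6.5, genes found in 6 to 94% of cells, 74 adhesion genes held out). Clusters were named from fixed markers where the lineage lists differed by 1 on the log2 scale (2 for the streak list), a rule of naming set after the clusters were seen. The 14 E4.5 cells of an unnamed cluster were left out. Doublets were not called, since double wells are labelled, and single wells alone were an alternative.

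Raw counts were summed per class and embryo over at least 3 cells and tested with edgeR 4.0.16 in R 4.3.3 (quasi-likelihood test after TMM scaling and filterByExpr, p-values adjusted over all genes by Benjamini-Hochberg). Stage comparisons were fitted over 6 classes, and comparisons of classes within a stage over embryos holding both. Class differences within embryos pair by design. Deviations of sums of the same embryo correlated at 0.011 to 0.125 at E4.5, 0.030 to 0.278 for the E6.5 lineages and 0.045 to 0.195 for the T classes. The largest sum total was 49484352 counts and the smallest 1165967. A gene without a count in a class was given a bound against 3 counts over that class.

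Named genes were all 7 members, up to 4 called genes per list and comparison with the largest fitted change, and the 3 genes most correlated with Fn1, Itga5, Itga3 and Itgb5. One of these correlated genes is not reported here. Alternatives were DESeq2 1.42.0, RLE normalization, no filter, a test against the log2 limit, a log2 limit of 2, single wells, Ward clustering, sums of at least 5 cells, an embryo block, each replicate left out, other limits of T, and E6.5 embryos chosen by title. After seeing the data, counting unnamed cells as PrE-like and leaving out E3.5 cells without an embryo number were added, as were the change of the lineage difference over embryos with both lineages, without and with an embryo block. The fits were tested on simulated counts with 200 genes changed 8-fold: 78, 72 and 99 were recovered for the epiblast steps, 71 for the endoderm, 40 for the change of the lineage difference, 118 and 98 for the lineages at E4.5 and E6.5 and 117 for the T classes, with 1, 1, 13, 1, 2, 4, 3 and 4 other genes called.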

Additional observations from a re-analysis of the deposited data

Results flagged for a closer look

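In 8 of 42 groups of 4 to 10 embryos 1 sum stood far from the rest by Dixon's 95% limit. For normally distributed values chance gives about 1 group in 20. Whether these linear CPM values were so distributed was not tested, so 8 of 42 cannot be read as an excess. Each was the highest of its group. For Fn1 it was the T-positive sum of E6.5 embryo 2 of the titles without a plate name, at 361.75 CPM, and the same embryo was highest for Itga5 in T-positive cells, at 25.24 CPM. In PrE-like cells Itga3 was at 67.98 CPM in P1 embryo 1 and Itgav at 26.31 CPM in P2 embryo 5. In E6.5 endoderm-like cells Itga3 was at 2.77 CPM in P2 embryo 6, whose sum also had 871 CPM of blood and maternal markers, with Ptprc at 0. In the same class Itga5 was at 138.52 CPM in P1 embryo 2 and Itga6 at 83.61 CPM in P3 embryo 7. At E3.5 Itgb5 was at 223.53 CPM in P8 embryo 5, a sum of 3 cells. The part of each embryo's other features in these values was not tested.

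The difference between endoderm-like and epiblast-like cells changed from E4.5 to E6.5 by a log2 value of 3.55 for Fn1 and -5.05 for Itga3, tested as a contrast of contrasts (adjusted p = 0.0491 and 0.0452 in edgeR). Over embryos with both lineages the call of Fn1 was lost (adjusted p = 0.136).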

How the results depend on the processing

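Depth limits the low genes: 28 counts of Itga3 in the E6.5 endoderm, and sums from 1165967 counts. Of 1143 alternative values, 173 counts stayed within 1.5 times and 67 did not; of the member values 816 kept direction and call or moved within their error, 44 lost and 9 gained the call, 23 reversed and 11 shares of cells moved further. With embryo as the replicate block, 1523 genes were called at E4.5, 536 for the E6.5 lineages and 1 for the T classes, with 2, 1 and 0 members; it changed no member call there. For the lineage change, embryos with both lineages gave 239 genes and 1 member, and 201 and 1 with the block, Fn1 losing its call in both. The cause of the changes below was not tested.

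Counts of genes were as follows. Tested against the log2 limit they were 1637, 369, 550, 909, 286, 747 and 166 for E3.5 to E4.5, E4.5 to E5.5, E5.5 to E6.5, the endoderm step, the lineage change, E4.5 lineages and E6.5 lineages. With DESeq2 they were 1077 (E4.5 to E5.5), 793 (lineage change), 966 (E6.5 lineages) and 4 (T classes). Sums of at least 5 cells gave 1766 (E3.5 to E4.5), 1903 (E5.5 to E6.5) and 178 (E6.5 lineages). No filter gave 2807 (E5.5 to E6.5). Embryos without a plate name alone gave 395 (E5.5 to E6.5), 435 (endoderm step) and 120 (lineage change); plate-named embryos, or leaving out E6.75, gave 216 (E6.5 lineages). Single wells gave 300, Ward clustering 300 and leaving out 1 embryo 212 to 270 for the lineage change, and Ward clustering 724 and a limit of 2 924 at E4.5.

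Counts of members were 2 with DESeq2 and 1 with RLE (E3.5 to E4.5); 0 against the limit or with Ward clustering, and 0 to 1 leaving out 1 embryo (E4.5 to E5.5); 0 against the limit, with Ward, without E6.75 or without plate-named embryos, and Fn1 in place of Itgb1 with plate-named embryos alone (E5.5 to E6.5); 2 with single wells or Ward (endoderm step); for the lineage change 1 without plate-named embryos, and 0 unfiltered, against the limit, with single wells, Ward, without E6.75, with plate-named embryos alone, counting unnamed cells as PrE-like or leaving out 1 embryo (0 to 0). They were 1 against the limit, with single wells, 5 cells or a limit of 2, and 1 to 2 leaving out 1 embryo (E4.5 lineages); and 2 with DESeq2 or merged plate names, 0 with 5 cells, without E6.75 or plate-named alone, and Itga6 in place of Itga3 without plate-named embryos (E6.5 lineages).

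Uncalled log2 values that changed sign were Itga5 from E3.5 to E4.5 (0.05, single wells); Itgav -1.11 and Fn1 0.01 from E5.5 to E6.5 (no plate name); in the endoderm step Itga6 (0.16 single wells, 0.14 to -0.29 leaving out 1 E4.5 embryo, 0.26 without E6.75, 0.22 plate-named), Itgb5 (0.45, single wells) and Fn1 (0.19 with Ward or 5 cells, 1.21 no plate name); in the lineage change Itga5 0.19 (no plate name), Itgb1 -0.11 (5 cells) and -0.14 to 0.60 (leaving out 1 E4.5 embryo) and Itgb5 0.36 (single wells); Itga3 at E4.5 (0.15 Ward, 0.07 with 5 cells); Itga5 at E6.5 (-0.19, 5 cells); and between T classes Itga5 (-2.09 to 0.68 leaving out 1 embryo, 0.92 without E6.75), Itgb1 (-0.14 to 0.32 and -0.30, likewise) and Fn1 (-0.04 to 2.39 leaving out 1 embryo). The T comparison within plate-named embryos could not be fitted, with 1 embryo.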

Other observations

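The 14 E4.5 cells that no marker list named came from 4 embryos. Itgb1 was found in 11 of them (122 CPM of the summed counts), Fn1 in 7 (37.4 CPM), Itga5 in 4 (21.3 CPM), Itga6 in 4 (22.5 CPM), Itgav in 4 (3.05 CPM), Itga3 in 3 (6.98 CPM) and Itgb5 in 1 (0.931 CPM).

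Over the 53 sums of all classes, which share embryos and plates, log2(CPM + 1) of Fn1 was most like that of Mybl2, Apol7d and Lrrc2 among 13548 genes (Pearson r = 0.698, 0.694 and 0.682). Apol7d is the gene whose exons share 292 bases with those of Fn1. Sdf2l1 and Tex264 were among the 3 genes most like Itga5 (0.680 and 0.664), Itga3 was most like Telo2, Fads1 and Limk1 (0.780, 0.759 and 0.752), and Itgb5 was most like Cenpm, 5430405H02Rik and Snrpb (0.724, 0.714 and 0.683). Between members, Itga3 and Itgb5 had r = 0.495, Itga3 and Itgb1 -0.479, and Fn1 and Itga5 0.258.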
